A study of Pseudozyma hubeiensis with 12 samples.

Results

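Exponentially growing cultures of the basidiomycete yeast Pseudozyma hubeiensis, strain BOT-O, were compared on xylose and on glucose by RNA sequencing. The comparison used 6 of the 12 libraries of the series: 3 biological replicates (A, B and C) grown on xylose and 3 grown on glucose, chosen by the sugar and the growth phase given in the labels. Every culture grew in YNB medium with ammonium sulfate at a C/N of 80 by mass, so the sugar was the difference between the groups that the labels give; the cell density at sampling is not given in the sources used here. The other 6 libraries came from the same kinds of culture sampled later under nitrogen starvation, again 3 on xylose and 3 on glucose. They entered the fit and are compared at the end. Phase and sampling time coincide in the labels and cannot be told apart.

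The species is known for secreting mannosylerythritol lipids, glycolipid surfactants made largely after growth has slowed. Yeasts that use xylose reduce it to xylitol with an NADPH-linked reductase, oxidise xylitol to xylulose with an NAD-linked dehydrogenase, and phosphorylate xylulose with xylulokinase. The product enters the non-oxidative branch of the pentose phosphate pathway, where transketolase and transaldolase convert it into glycolytic sugar phosphates. In many fungi glucose also represses genes for other carbon sources.

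The exponential libraries held 28.6 to 30.5 M counted reads on xylose and 19.4 to 32.4 M on glucose (M, 1e6), so counting error was small for all but the rarest messages. Of 6689 loci, 5805 had enough reads to be tested. With edgeR's quasi-likelihood test and Benjamini-Hochberg adjustment, 577 genes (9.94% of those tested) were higher on xylose and 626 (10.8%) were lower at an adjusted p below 0.05, together 1203 (20.7%). "Rose" and "fell" below refer to these calls and are read against those shares. A difference of at least 2-fold was reached by 141 of the risers (2.43% of tested genes) and 106 of the fallers (1.83%). At 16-fold or more the counts were 22 and 3. The fit took its spread from all 12 libraries. On the 6 exponential libraries alone, 1282 genes rose (22.4% of 5733) and 1176 fell (20.5%), while the counts at 2-fold or more were 160 and 115. The median log2 fold change over all tested genes was -0.03. The 3 xylose and the 3 glucose values did not overlap for 53.2% of tested genes, so a lack of overlap was common. Values below are CPM, the reads of a gene per 1e6 reads after TMM scaling of the libraries, and fold changes are xylose over glucose. A library gives each gene's share of the sequenced messages, not its amount per cell. A lower share in every cell and fewer cells holding the message cannot be told apart. Gene names are those of the deposited annotation. A suffix such as _2 marks a further locus with the same best match, and how reads shared by such copies were assigned is not given in the sources used here, so separate values of copies are uncertain.

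**Figure D1:**
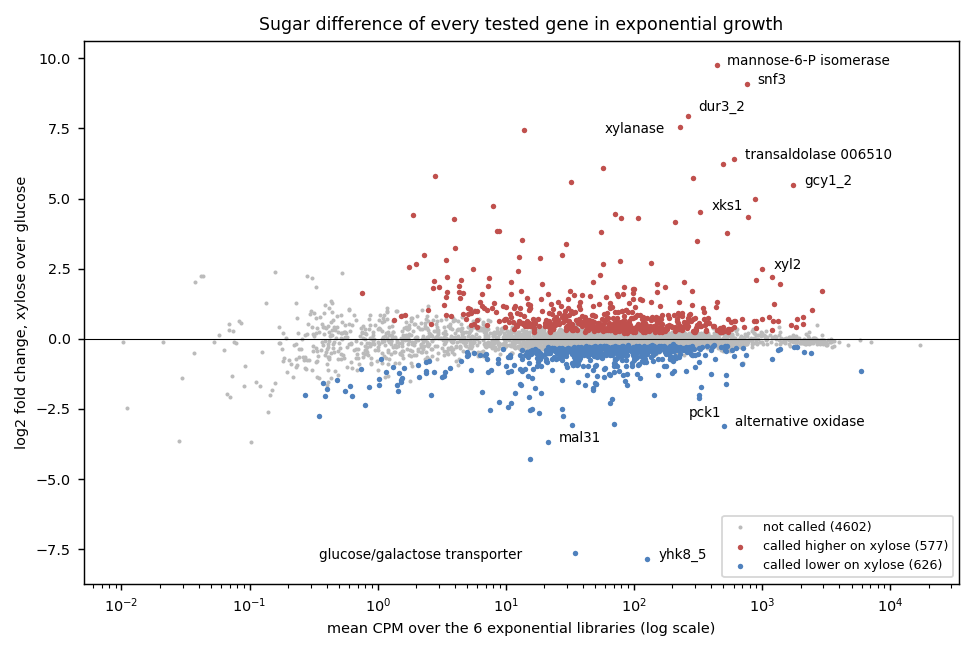
Log2 fold change of xylose over glucose (vertical axis) against the mean CPM of the 6 exponential libraries (horizontal axis, log scale), with 1 point per tested gene. Red points are the 577 genes called higher on xylose, blue points the 626 called lower and grey points the 4602 genes not called; the largest rises, such as snf3 at 9.07, lie farther from 0 than the largest falls, such as yhk8_5 at -7.85.

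Genes of xylose breakdown were higher on xylose, the sugar given in the label. Of the 8 tested genes of this list 5 rose and none fell, with a median log2 fold change of 1.01. Xylulokinase, xks1 (PHBOTO_001564), had 636, 650.0 and 611 CPM in the xylose cultures, against 26.7, 27.8 and 28.6 CPM in the glucose cultures. The groups were far apart, a 22.9-fold difference (log2 4.52 ± 0.17 SE, adjusted p = 1.34e-11). The xylitol dehydrogenase gene xyl2 (PHBOTO_003491) had 1746, 1678 and 1704 CPM on xylose and 292, 308 and 313 CPM on glucose (log2 2.49 ± 0.09 SE, adjusted p = 8.67e-12). It was thus already well read on glucose and 5.62 times higher on xylose. The sorbitol dehydrogenase gene sor1 (PHBOTO_000419), whose product oxidises polyols of the same kind, averaged 103 ± 4.51 CPM on xylose and 7.37 ± 0.271 CPM on glucose (SD, n = 3 each; log2 3.80 ± 0.12 SE, adjusted p = 1.53e-12).

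The genes annotated as xylose reductase, the enzyme of the first step, showed smaller differences. The xr1 gene (PHBOTO_004254) had 933, 936 and 1014 CPM on xylose, against 662, 825 and 772 CPM on glucose. Every xylose value lay above every glucose value, yet the difference was 0.35 ± 0.13 on the log2 scale and missed the threshold (adjusted p = 0.0614). With the spread taken from the 6 exponential libraries alone it passed (log2 0.38, adjusted p = 0.000571); over the 13 alternatives its log2 fold change ran between 0.27 and 0.42 and its adjusted p between 0.000286 and 0.236. The xr3 gene (PHBOTO_005965) rose to 26.2 ± 1.77 CPM on xylose, against 18.2 ± 1.42 CPM on glucose (SD, n = 3 each; log2 0.53 ± 0.12 SE, adjusted p = 0.00509). A further aldo-keto reductase gene behaved otherwise. The gcy1_2 gene (PHBOTO_003056), annotated as an NADP-linked glycerol dehydrogenase, had 3344, 3593 and 3354 CPM on xylose and 79.4, 80.8 and 70.7 CPM on glucose. Its replicates agreed closely in each group, and the difference was 44.6-fold (log2 5.48 ± 0.11 SE, adjusted p = 7.16e-15).

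Further loci matched xylitol dehydrogenase. Of these xyl2_4 (PHBOTO_006563) rose, to 5.08 ± 0.950 CPM on xylose, against 1.80 ± 0.235 CPM on glucose (SD, n = 3 each; log2 1.49 ± 0.24 SE, adjusted p = 2.89e-04). The other two, xyl2_2 and xyl2_3, had log2 fold changes of 0.06 and 0.20 and did not pass the test. In a list of 11 tested aldose, polyol and aldo-keto enzymes, put together after values had been seen, 8 rose and none fell, with a median of 0.72. The only negative log2 fold change in the list was -2.08, for a gene that was not called. Beside gcy1_2 and sor1, the aldehyde reductase gene ari1_2 (PHBOTO_003094) averaged 48.9 ± 2.21 CPM on xylose and 6.15 ± 0.648 CPM on glucose (SD, n = 3 each; log2 2.98 ± 0.10 SE). The dihydroxyacetone kinase gene dak2 (PHBOTO_000738) averaged 393 ± 34.1 CPM on xylose and 170.3 ± 10.7 CPM on glucose (SD, n = 3 each; log2 1.21 ± 0.09 SE).

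**Figure D2:**
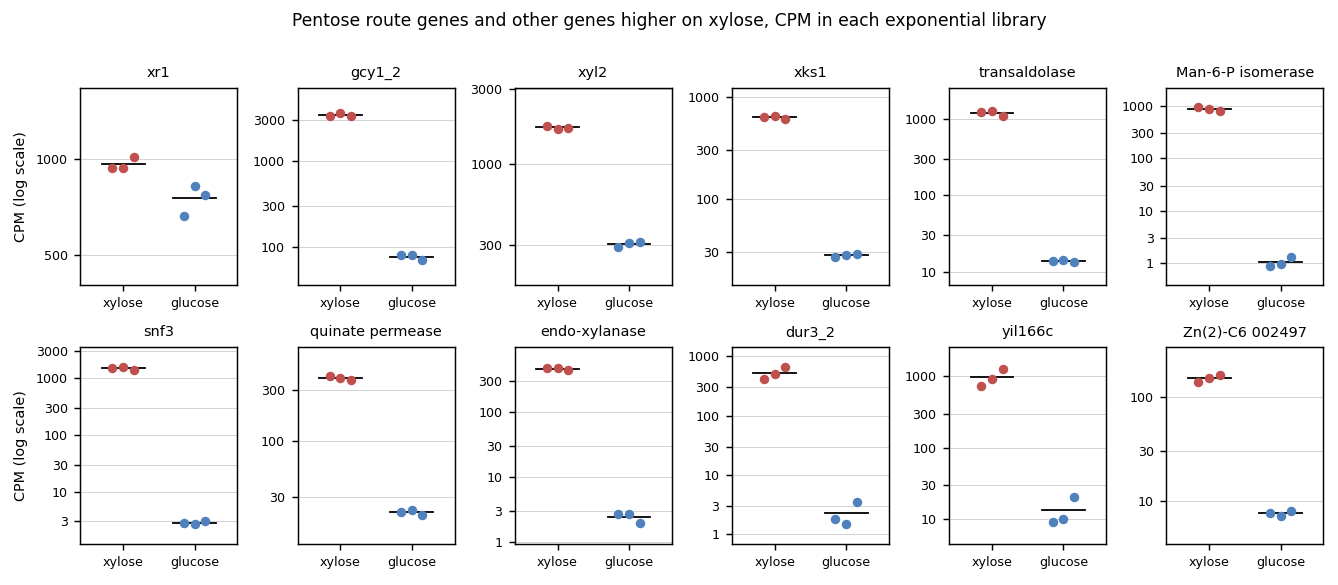
CPM (log scale, each panel with its own range) of 12 genes in the 3 xylose libraries (red, left) and the 3 glucose libraries (blue, right) of exponential growth; points are replicates A, B and C from left to right and bars are group means. The xr1 groups lie close together, with means of 961 and 753 CPM, while the snf3 groups lie 539-fold apart.

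The pentose phosphate pathway receives xylulose 5-phosphate and also supplies NADPH. Of its 11 tested genes 5 rose and none fell, with a median log2 fold change of 0.62. A transaldolase gene (PHBOTO_006510) had 1241, 1255 and 1093 CPM on xylose, against 14.0, 14.3 and 13.5 CPM on glucose. That is 85.7-fold (log2 6.42 ± 0.19 SE, adjusted p = 4.92e-13), whereas the transaldolase gene nqm1 (PHBOTO_004569) averaged 1421 ± 49.8 CPM on xylose and 1298 ± 90.2 CPM on glucose (SD, n = 3 each) and did not pass the test. The transketolase gene tkl1 (PHBOTO_004433) had 1457, 1767 and 1588 CPM on xylose and 1083, 1058 and 983 CPM on glucose (log2 0.62 ± 0.09 SE, adjusted p = 1.48e-04).

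In the oxidative branch, which makes the NADPH, the genes of both dehydrogenases rose. Glucose-6-phosphate dehydrogenase, zwf1 (PHBOTO_004394), had 897, 863 and 859.8 CPM on xylose and 543, 539 and 512 CPM on glucose. 6-Phosphogluconate dehydrogenase, gnd2 (PHBOTO_002684), had 2242, 2499 and 2206 CPM on xylose and 1477, 1426 and 1395 CPM on glucose. The groups did not overlap for either gene, with log2 fold changes of 0.72 ± 0.08 and 0.69 ± 0.09 (SE; adjusted p = 8.39e-06 and 1.89e-05). The lactonase gene sol1 (PHBOTO_004064), for the step between the dehydrogenases, averaged 389 ± 13.7 CPM on xylose and 328 ± 12.9 CPM on glucose (SD, n = 3 each) and did not pass the test (log2 0.25 ± 0.09 SE, adjusted p = 0.0677). The epimerase gene rpe1 and the isomerase gene rki1, whose enzymes interconvert the pentose phosphates, had log2 fold changes of 0.12 and -0.28 and did not pass the test.

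The largest rise of a gene with an annotated product belonged to a gene for mannose-6-phosphate isomerase (PHBOTO_006511), an enzyme that links fructose 6-phosphate to the mannose donors used in glycosylation. It had 961, 891 and 795 CPM on xylose, against 0.865, 0.970 and 1.32 CPM on glucose (log2 9.75 ± 0.39 SE, adjusted p = 2.17e-11). Its locus number follows that of the induced transaldolase directly. The loci next in number on either side, for an NADAR domain protein (PHBOTO_006509) and for ydl057w_2 (PHBOTO_006512), chosen after their values were seen, both rose and had log2 fold changes of 0.48 and 0.94.

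In glycolysis 6 of 18 tested genes rose and 2 fell (12 and 2 in the fit of the 6 exponential libraries), with a median of 0.23. Leaving out 5 phosphoglycerate mutase family members of unstated pathway gave 5 and 2 of 13. The glucose-6-phosphate isomerase gene pgi1 (PHBOTO_004268) averaged 603 ± 16.8 CPM on xylose and 278 ± 10.7 CPM on glucose (SD, n = 3 each; log2 1.12 ± 0.11 SE). The fallers were the glucokinase gene glk1 (PHBOTO_003515), whose enzyme phosphorylates glucose (log2 -0.56 ± 0.09 SE), and the aldolase gene fba1 (PHBOTO_000154) at -0.48 ± 0.08 (SE). A second aldolase locus, fba1_2 (PHBOTO_003617), moved the other way, with 168 ± 6.55 CPM on xylose and 64.6 ± 3.54 CPM on glucose (SD, n = 3 each; log2 1.38 ± 0.10 SE).

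Storage carbohydrate genes went both ways. Of 12 tested, 5 rose and 2 fell, and the median was 0.14. The risers named by the rule were gsy1 (PHBOTO_001281), glycogen synthase, at log2 1.09 ± 0.09 (SE), glg2 (PHBOTO_001185), the glycogenin that primes glycogen, at 0.83 ± 0.10, and ugp1 (PHBOTO_005545), which makes UDP-glucose, at 0.65 ± 0.08. The fallers were both neutral trehalase loci, nth1 (PHBOTO_002035) at -0.42 and nth1_2 (PHBOTO_003557) at -1.13; the first of these is named in addition to the rule, after its value was seen.

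Transporters and sensors of sugars changed in both directions. Of 24 tested genes 9 rose and 3 fell. Their median was 0.14, and the counts were again 9 and 3 when any of the 6 libraries was left out. The snf3 gene (PHBOTO_005944), whose Saccharomyces cerevisiae namesake is a transporter-like glucose sensor, had 1517, 1601 and 1423 CPM on xylose, against 2.76, 2.64 and 3.07 CPM on glucose. It was little read on glucose in each replicate (log2 9.07 ± 0.13 SE, adjusted p = 5.44e-17). Its companion rgt2 (PHBOTO_004490), annotated as a high glucose sensor, averaged 1889.6 ± 112 CPM on xylose and 1773 ± 78.4 CPM on glucose (SD, n = 3 each) and did not pass the test (log2 0.09 ± 0.12 SE, adjusted p = 0.649).

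A quinate permease gene (PHBOTO_001594) had 409.7, 395 and 376 CPM on xylose and 21.8, 22.8 and 20.6 CPM on glucose (log2 4.18 ± 0.09 SE, adjusted p = 1.17e-14). The transporter gene stl1_6 (PHBOTO_004810), named after a glycerol symporter of S. cerevisiae, had 64.9, 65.7 and 57.8 CPM on xylose and 1.13, 0.911 and 2.05 CPM on glucose (log2 5.59 ± 0.24 SE, adjusted p = 5.18e-11). In the other direction, a gene annotated as a glucose/galactose transporter (PHBOTO_004493) had 0.374, 0.193 and 0.459 CPM on xylose, against 69.0, 78.6 and 61.2 CPM on glucose. It was thus read mainly on glucose, where it was 201-fold higher than on xylose (log2 -7.65 ± 0.29 SE, adjusted p = 1.65e-10). Smaller changes included those of other transporters. The gene gal2 (PHBOTO_003550), named after a galactose transporter, averaged 16.1 ± 0.614 CPM on xylose and 1.10 ± 0.0908 CPM on glucose, and hxt5 (PHBOTO_003377), named after a glucose transporter, averaged 231 ± 15.7 CPM on xylose and 412 ± 29.5 CPM on glucose (SD, n = 3 each; log2 3.85 ± 0.23 and -0.84 ± 0.16 SE; adjusted p = 5.29e-09 and 0.00102), both chosen after their values were seen.

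Genes for enzymes that open plant cell wall polysaccharides rose in a larger share than genes as a whole. Of 47 tested genes 19 rose and 2 fell, and their median was 0.23. Leaving out a library gave 13 or 14 risers, and 1 faller without xylose A, xylose B or any glucose library. An endo-xylanase gene (PHBOTO_006039), whose product cuts the xylan backbone, had 471, 467 and 437 CPM on xylose, against 2.66, 2.64 and 1.948 CPM on glucose (log2 7.54 ± 0.19 SE, adjusted p = 5.27e-14). The groups differed 186-fold with no overlap.

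A further pair of genes of this list were almost unread on glucose. A gene for an arabinofuranosidase (PHBOTO_003363), which removes arabinose side chains, averaged 27.6 ± 3.17 CPM on xylose and 0.156 ± 0.0774 CPM on glucose (SD, n = 3 each), on glucose from 13 reads in all. A beta-xylanase gene (PHBOTO_003675) averaged 5.54 ± 0.547 CPM on xylose and 0.0887 ± 0.0357 CPM on glucose, there from 8 reads in all. Their log2 fold changes were 7.44 ± 0.59 and 5.80 ± 0.38 (SE; adjusted p = 1.21e-07 and 1.23e-08). The polygalacturonase gene pgu1 (PHBOTO_002755), for a pectin-cutting enzyme, averaged 53.9 ± 8.31 CPM on xylose and 5.14 ± 0.700 CPM on glucose (log2 3.37 ± 0.17 SE). An expansin gene (PHBOTO_001076), for a wall-loosening protein, averaged 1737 ± 79.6 CPM on xylose and 727 ± 56.6 CPM on glucose (log2 1.26 ± 0.19 SE).

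A gene annotated as a glycoside hydrolase (PHBOTO_005943), with a locus number next to snf3, had 115, 119 and 106 CPM on xylose and 1.66, 1.56 and 1.85 CPM on glucose (log2 6.08 ± 0.15 SE, adjusted p = 3.01e-14). An NAD-binding dehydrogenase gene (PHBOTO_006576) had 143, 132 and 133 CPM on xylose and 6.95, 6.41 and 5.31 CPM on glucose (log2 4.44 ± 0.19 SE, adjusted p = 5.03e-11). For both genes the lowest xylose value was more than 10 times the highest glucose value.

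Genes for taking up and using nitrogen compounds changed in both directions. Of 56 tested genes 19 rose and 10 fell, and their median was 0.22. The fallers numbered 5 without xylose B, 6 without glucose A or glucose B, and 9 at most when another library was left out. The dur3_2 gene (PHBOTO_002616), annotated as a urea transporter, had 413, 497 and 659.9 CPM on xylose, against 1.80, 1.499 and 3.46 CPM on glucose (log2 7.94 ± 0.30 SE, adjusted p = 9.60e-12). The oligopeptide transporter gene opt1_4 (PHBOTO_003635) had 176, 200.1 and 238 CPM on xylose and 8.35, 8.85 and 14.3 CPM on glucose (log2 4.31 ± 0.23 SE, adjusted p = 8.88e-10). In both genes replicate C gave the highest value within each sugar, and the groups stayed far apart.

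The yil166c gene (PHBOTO_001963), for an uncharacterised transporter, followed the same pattern, with 745, 922 and 1254 CPM on xylose and 9.35, 10.2 and 20.6 CPM on glucose (log2 6.22 ± 0.29 SE, adjusted p = 1.71e-10). Smaller rises were those of the urea transporter gene dur3 (PHBOTO_006208) at log2 2.27 ± 0.17 (SE), the peptide transporter gene ptr2 (PHBOTO_005886) at 1.86 ± 0.10 and the ammonia exporter gene ato2 (PHBOTO_000690) at 1.01 ± 0.10. Of the 4 tested genes of ammonium assimilation 1 rose and 1 fell. The glutamine synthetase gene gln1 (PHBOTO_003786) and the glutamate synthase gene glt1 (PHBOTO_004088) had log2 fold changes of 0.04 and 0.04 and did not pass the test. The NAD-linked glutamate dehydrogenase gene gdh2 (PHBOTO_006034) fell by 0.54 on the log2 scale (adjusted p = 0.00304). A locus annotated as glutamate synthase (PHBOTO_003851) rose, to 7.31 ± 0.898 CPM on xylose, against 1.69 ± 0.451 CPM on glucose (SD, n = 3 each). The locus for gdh1 is listed at 0 in all 12 libraries, as are 615 loci in all, among them lys1 and cpa1 of amino acid synthesis, so nothing is reported on them.

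A list of 5 oxygenase genes, of the kinds that release sulfite or amines from organic compounds, was put together after values had been seen. Of these 4 rose (3 without xylose C or glucose A) and 1 fell. A gene for a xenobiotic monooxygenase (PHBOTO_003559) had 829.7, 993 and 1163 CPM on xylose, against 67.7, 62.7 and 90.6 CPM on glucose (log2 3.76 ± 0.21 SE, adjusted p = 1.65e-09). A taurine dioxygenase gene (PHBOTO_005008) had 1259, 1452 and 1675 CPM on xylose and 284, 304 and 434 CPM on glucose (log2 2.103 ± 0.18 SE, adjusted p = 3.97e-07). Here too replicate C was highest within each sugar. The fifth member, a TauD domain gene (PHBOTO_005702), fell to 8.46 ± 2.73 CPM on xylose, against 21.2 ± 4.49 CPM on glucose (SD, n = 3 each; log2 -1.33 ± 0.22 SE). In the list of sulfur assimilation and methionine synthesis, which holds some of the same genes, 5 of 20 tested genes rose (3 without xylose C or glucose A) and 1 fell (2 without xylose B, 3 with DESeq2), with a median of -0.03. The methionine synthase gene met6 (PHBOTO_003296) averaged 3143 ± 150.3 CPM on xylose and 3829 ± 271 CPM on glucose (SD, n = 3 each) and did not pass the test (adjusted p = 0.0552).

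Among genes for transcription factors, 15 of 133 tested rose and 16 fell, shares close to those of all genes. The fallers numbered 8 without xylose C, 10 without glucose A and 9 without glucose B. The largest riser was a gene with a fungal zinc cluster domain (PHBOTO_002497), which had 139, 151 and 160.1 CPM on xylose, against 7.59, 7.17 and 7.89 CPM on glucose (log2 4.31 ± 0.24 SE, adjusted p = 1.45e-09). A second zinc cluster gene (PHBOTO_000796) averaged 22.4 ± 3.65 CPM on xylose and 2.95 ± 0.276 CPM on glucose (SD, n = 3 each; log2 2.92 ± 0.38 SE). No name or target is annotated for either.

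In the list of glucose signalling regulators 8 of 24 tested genes rose (5 without xylose B, glucose B or glucose C) and 2 fell (1 without xylose B, xylose C, glucose A or glucose B), with a median of 0.11. The G-protein alpha subunit gene gpa2_2 (PHBOTO_002746), whose S. cerevisiae namesake acts in glucose sensing through cAMP, had 252, 228 and 238 CPM on xylose and 60.9, 61.9 and 64.8 CPM on glucose (log2 1.94 ± 0.10 SE, adjusted p = 4.85e-10). The gene sip4 (PHBOTO_003018), named after an activator of gluconeogenic genes, fell to 1.88 ± 0.282 CPM on xylose, against 4.75 ± 0.741 CPM on glucose (SD, n = 3 each; log2 -1.34 ± 0.28 SE).

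Genes without an annotated product were among the strongest risers. The locus PHBOTO_001681 had 1846, 1778 and 1537 CPM on xylose, against 48.8, 55.6 and 58.3 CPM on glucose, and PHBOTO_001747 had 606, 577 and 527 CPM on xylose, against 9.38, 11.3 and 11.1 CPM on glucose. The locus PHBOTO_002941 had 1286, 1540.2 and 1586 CPM on xylose and 60.3, 55.2 and 105 CPM on glucose, with the highest glucose value in replicate C. Their log2 fold changes were 4.99 ± 0.17, 5.75 ± 0.13 and 4.33 ± 0.26 (SE; adjusted p = 2.16e-12, 1.17e-14 and 3.56e-09).

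Fewer genes fell steeply on xylose. The yhk8_5 gene (PHBOTO_004167), annotated as a drug/proton antiporter, had 0.935, 1.41 and 0.951 CPM on xylose, against 250.2, 250.2 and 262 CPM on glucose. It was 230.0-fold higher on glucose than on xylose (log2 -7.85 ± 0.17 SE, adjusted p = 1.17e-14). The maltose permease gene mal31 (PHBOTO_003640) had 3.02, 2.83 and 3.35 CPM on xylose and 43.1, 41.0 and 34.2 CPM on glucose. The alpha-glucosidase gene mal32 (PHBOTO_003639), which carries the preceding locus number and whose product splits maltose, had 15.2, 15.2 and 15.4 CPM on xylose and 123, 129 and 123 CPM on glucose. Their log2 fold changes were -3.68 ± 0.23 and -3.03 ± 0.08 (SE; adjusted p = 6.87e-09 and 1.88e-13).

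**Figure D3:**
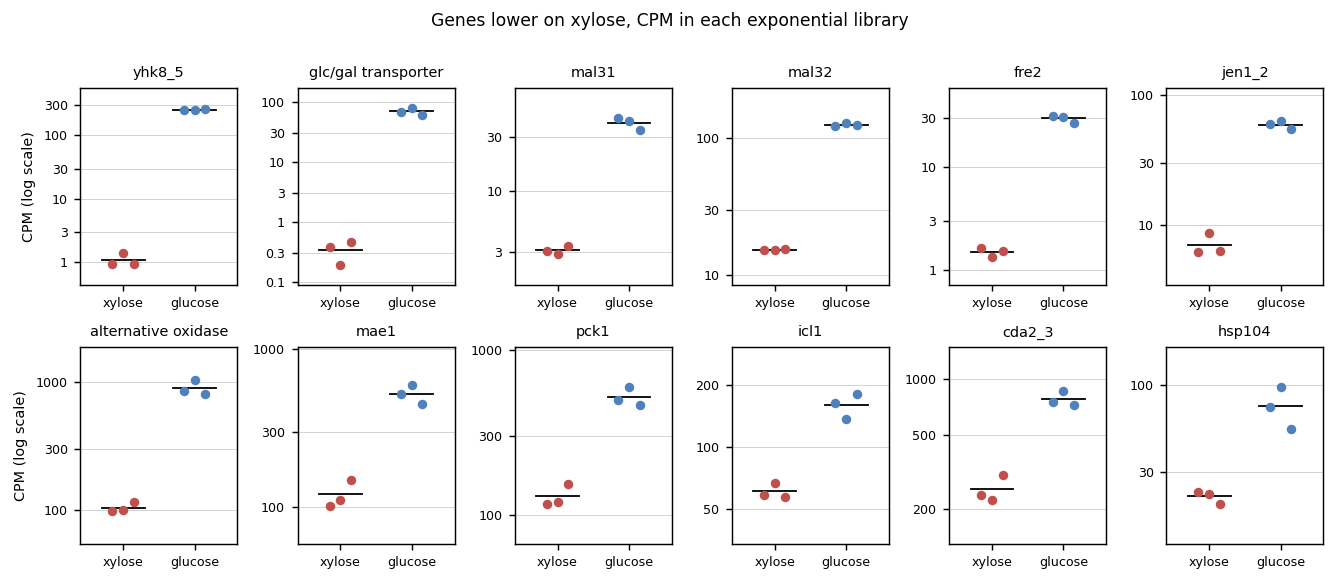
CPM (log scale, each panel with its own range) of 12 genes lower on xylose, in the 3 xylose libraries (red, left) and the 3 glucose libraries (blue, right) of exponential growth; points are replicates A, B and C from left to right and bars are group means. No panel shows overlap; the yhk8_5 libraries reach at most 1.41 CPM on xylose, against at least 250.2 CPM on glucose.

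The ferric reductase gene fre2 (PHBOTO_003664), for a surface enzyme of iron and copper uptake, averaged 1.51 ± 0.153 CPM on xylose and 29.6 ± 2.41 CPM on glucose (SD, n = 3 each; log2 -4.28 ± 0.31 SE, adjusted p = 5.26e-08). The other genes of metal uptake did not follow it: of 18 tested 1 rose (0 to 2 when a library was left out) and 1, fre2, fell, and the median was 0.06. In the fit of the 6 exponential libraries 6 rose and 1 fell, against 22.4% and 20.5% of all genes in that fit. The siderophore transporter gene sit1 (PHBOTO_005049) averaged 522 ± 45.3 CPM on xylose and 533 ± 54.2 CPM on glucose and did not pass the test. The carboxylic acid transporter gene jen1_2 (PHBOTO_000311) had 6.27, 8.64 and 6.30 CPM on xylose and 59.4, 62.6 and 54.7 CPM on glucose (log2 -3.06 ± 0.27 SE, adjusted p = 3.97e-07). Its namesake jen1 (PHBOTO_005261) rose slightly, to 224 ± 14.1 CPM on xylose, against 163 ± 4.44 CPM on glucose (SD, n = 3 each; log2 0.46 ± 0.09 SE). In the list of organic acid transporters to which both belong, 2 of 10 tested genes rose and 5 fell, with a median of -0.43.

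Gluconeogenesis and the glyoxylate cycle, which make sugar phosphates from smaller acids and are repressed by glucose in many yeasts, were lower on xylose than on glucose. Of 7 tested genes 6 fell and none rose, with a median of -0.98. Without icl2, the 2-methylisocitrate lyase gene of propionate breakdown, 5 of 6 fell, and without xylose replicate B 4 of 7 fell. Phosphoenolpyruvate carboxykinase, pck1 (PHBOTO_005250), had 116, 119 and 154 CPM on xylose, against 498, 596 and 463 CPM on glucose (log2 -2.002 ± 0.20 SE, adjusted p = 1.99e-06). Isocitrate lyase, icl1 (PHBOTO_004721), had 58.4, 66.9 and 57.5 CPM on xylose and 164, 137 and 181 CPM on glucose (log2 -1.40 ± 0.11 SE, adjusted p = 1.71e-07). Malate synthase, mls1 (PHBOTO_003227), averaged 199.9 ± 19.6 CPM on xylose and 399.7 ± 46.9 CPM on glucose, and fructose-bisphosphatase, fbp1 (PHBOTO_002551), 119 ± 4.77 CPM on xylose and 235 ± 26.7 CPM on glucose (SD, n = 3 each; adjusted p = 9.25e-06 and 3.29e-04). Pyruvate carboxylase, pyc2 (PHBOTO_001241), did not pass the test (log2 0.13 ± 0.10 SE).

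A pair of mitochondrial genes fell more steeply than most. The alternative oxidase gene (PHBOTO_002482), whose product passes electrons to oxygen without pumping protons, had 98.3, 99.5 and 116 CPM on xylose, against 855, 1047 and 804 CPM on glucose (log2 -3.11 ± 0.19 SE, adjusted p = 5.64e-09). The mitochondrial malic enzyme gene mae1 (PHBOTO_002234), annotated as NAD-dependent, had 101, 109.8 and 147 CPM on xylose and 524, 591 and 449 CPM on glucose (log2 -2.12 ± 0.21 SE, adjusted p = 1.59e-06). For pck1, mae1 and the alternative oxidase, xylose replicate C was the highest and glucose replicate B the highest of its group, and the groups did not overlap.

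Mitochondrial carriers and the tricarboxylic acid cycle shared the direction. Of 34 tested carriers 12 fell and 1 rose (0 or 1 when a library was left out), with a median of -0.10 (7 fallers without xylose C, glucose B or glucose C). The carrier gene ypr011c (PHBOTO_002278) averaged 58.0 ± 6.17 CPM on xylose and 231 ± 22.1 CPM on glucose, and the succinate/fumarate carrier gene sfc1 (PHBOTO_005040) 25.3 ± 2.38 CPM on xylose and 75.0 ± 4.57 CPM on glucose (SD, n = 3 each). Their log2 fold changes were -1.99 ± 0.17 and -1.57 ± 0.11 (SE; adjusted p = 2.97e-07 and 2.48e-08). Of 24 tested genes of the cycle 8 fell and 1 rose, with a median of -0.17 (4 fallers without xylose A, glucose A or glucose B, and 5 without xylose C). Fumarase, fum1 (PHBOTO_000038), fell by 0.71 on the log2 scale (adjusted p = 0.00184), while the pyruvate dehydrogenase gene pda1 (PHBOTO_004085) averaged 2496 ± 55.7 CPM on xylose and 2464 ± 26.0 CPM on glucose (SD, n = 3 each) and did not pass the test (log2 0.02 ± 0.08 SE).

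Oxidative phosphorylation apart from the alternative oxidase showed few calls. Of 41 tested genes 2 fell, the alternative oxidase among them, and 1 rose, although 39 had negative values and the median was -0.16; DESeq2 called 5 lower, and in the fit of the 6 exponential libraries 12 fell and 1 rose. The ATP synthase beta subunit gene atp2 (PHBOTO_003154) averaged 2507 ± 79.4 CPM on xylose and 2819 ± 18.6 CPM on glucose (SD, n = 3 each) and did not pass the test. The external NADH dehydrogenase gene nde1 (PHBOTO_003504) was the riser (log2 0.70 ± 0.15 SE, adjusted p = 0.00351). The other faller was nde1_2 (PHBOTO_000880), a locus with the same annotated product (log2 -1.17 ± 0.20 SE, adjusted p = 4.98e-04). It averaged 1.69 CPM on xylose and 3.83 CPM on glucose. Peroxisomal and beta-oxidation genes leaned down, with 12 of 58 falling, none rising and a median of -0.13; the carnitine acetyltransferase gene yat1 (PHBOTO_001642) averaged 47.9 ± 3.40 CPM on xylose and 106 ± 9.39 CPM on glucose (SD, n = 3 each; log2 -1.14 ± 0.10 SE).

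Genes of alcohol, acetate and lactate metabolism went both ways. Of 29 tested 5 rose and 8 fell (4 fallers without xylose C and 5 without xylose A), with a median of -0.05. The D-lactate dehydrogenase gene dld1 (PHBOTO_001232), which feeds electrons from lactate to cytochrome c, had 242, 271 and 195 CPM on xylose and 34.4, 35.0 and 39.6 CPM on glucose (log2 2.70 ± 0.12 SE, adjusted p = 1.21e-10). The mitochondrial aldehyde dehydrogenase gene ald4 (PHBOTO_002758) had 377, 456 and 358 CPM on xylose and 97.7, 90.6 and 105 CPM on glucose (log2 2.02 ± 0.15 SE, adjusted p = 4.56e-08). Pyruvate decarboxylase, pdc1 (PHBOTO_004255), which starts ethanol formation, averaged 6.34 ± 1.31 CPM on xylose and 14.4 ± 1.44 CPM on glucose (SD, n = 3 each; log2 -1.19 ± 0.13 SE, adjusted p = 8.12e-06).

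**Figure D4:**
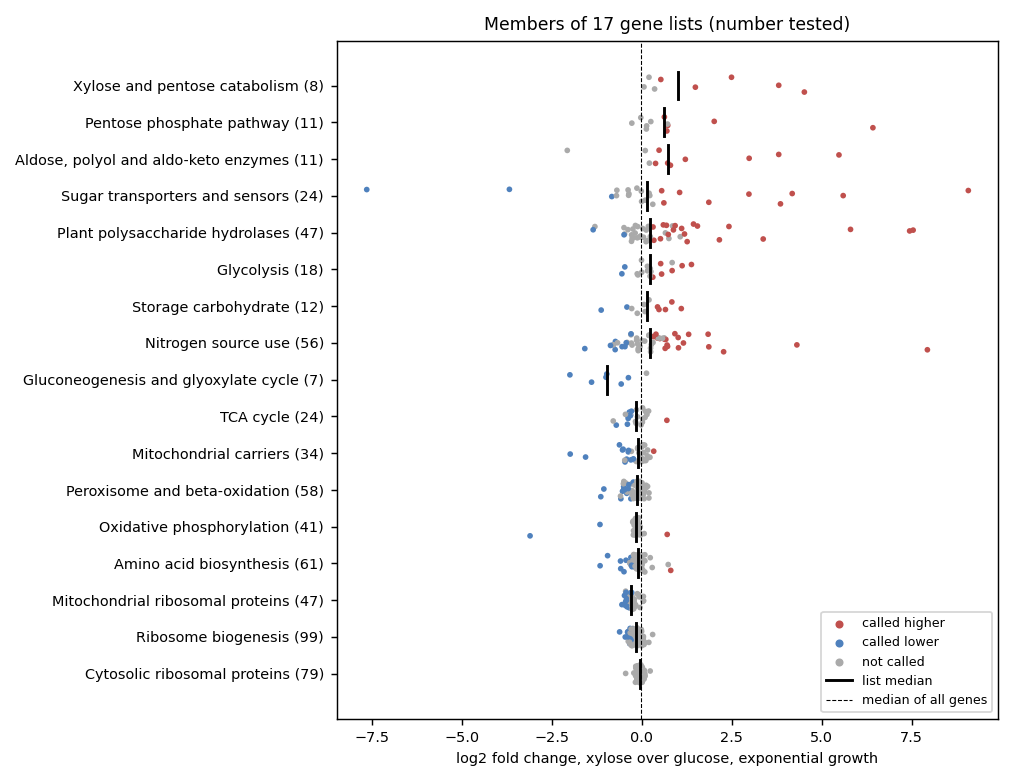
Log2 fold change of xylose over glucose in exponential growth (horizontal axis) for the tested members of 17 gene lists, with 1 point per gene, spread vertically for visibility. Red points rose, blue points fell and grey points were not called; the thick bar is the list median, from 1.01 for xylose catabolism to -0.98 for gluconeogenesis and the glyoxylate cycle, and the dashed line is the median of all tested genes, -0.03.

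Genes of cytosolic protein synthesis gave few calls. None of 79 cytosolic ribosomal protein genes was called by edgeR, against 1 called lower by DESeq2 and 1 lower at an unadjusted p under 0.05 in edgeR. Their median was -0.07; in the fit of the 6 exponential libraries 6 fell and none rose. Mitochondrial ribosomal protein genes lay lower, with 14 of 47 falling, none rising and a median of -0.29, and 44 of the 47 values were negative. Their number of fallers was 10 without xylose A, 8 without xylose B, 5 without xylose C or glucose A, 6 without glucose B or glucose C, 22 with DESeq2, and 39 in the fit of the 6 exponential libraries. The changes were small, for instance 220.3 ± 19.1 CPM on xylose and 302 ± 14.7 CPM on glucose for mrpl33 (PHBOTO_000275) (SD, n = 3 each; log2 -0.46 ± 0.09 SE, adjusted p = 9.74e-04).

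Ribosome biogenesis genes had 12 of 99 falling and none rising, with a median of -0.18 (4 without xylose C or glucose A, 5 without xylose B or glucose B, 7 without xylose A or glucose C, and 39 in the fit of the 6 libraries). Translation factors and aminoacyl-tRNA synthetases had 5 of 55 falling (1 to 3 when any of the 6 libraries was left out) and a median of -0.09, and the elongation factor gene tef1 (PHBOTO_003288) averaged 15658 ± 315 CPM on xylose and 18277 ± 398 CPM on glucose without passing the test. Amino acid biosynthesis had 12 of 61 falling (8 or 9 when a library was left out), 1 rising and a median of -0.12. The aminotransferase genes bat1 (PHBOTO_000729), for branched-chain amino acids, and aro8 (PHBOTO_001687), for aromatic ones, had log2 fold changes of -1.16 ± 0.12 and -0.95 ± 0.15 (SE; adjusted p = 3.02e-06 and 2.09e-04). Replication and histone genes showed 1 rise (0 without xylose C or glucose C) and no fall (1 without xylose B) among 36, with a median of 0.03. DESeq2 called 3 higher and 5 lower, edgeR at an unadjusted p under 0.05 gave 6 and 5, and the fit of the 6 exponential libraries gave 10 and 6.

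Genes of mannosylerythritol lipid synthesis were read at 23.8 CPM or less in every exponential library. Of the 5 genes the acyltransferase genes mac1 and mac2 rose and none fell (1, emt1, without glucose B). The mac1 gene (PHBOTO_003090) had 4.55, 3.86 and 4.82 CPM on xylose, against 1.13, 0.940 and 1.07 CPM on glucose (log2 2.08 ± 0.20 SE, adjusted p = 1.16e-06). The mac2 gene (PHBOTO_003092) had 8.26, 6.91 and 6.69 CPM on xylose, against 4.99, 4.32 and 4.38 CPM on glucose (log2 0.67 ± 0.14 SE, adjusted p = 0.00295). The glycosyltransferase gene emt1 (PHBOTO_003091) stood at 6, 4 and 6 reads on xylose and at 14, 8 and 9 reads on glucose (log2 -1.08 ± 0.41 SE, adjusted p = 0.0716, between 0.0323 and 0.259 over 11 alternatives). The acetyltransferase gene mat1 (PHBOTO_003088) had 21.9, 21.2 and 23.8 CPM on xylose and 23.5, 22.0 and 23.3 CPM on glucose, and the exporter gene mmf1 (PHBOTO_003089) had 0.935, 0.964 and 0.787 CPM on xylose and 0.865, 1.18 and 0.828 CPM on glucose, with log2 fold changes of -0.04 and -0.12. None of emt1, mat1 and mmf1 passed the test.

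In fatty acid synthesis and its NADPH supply 3 of 11 tested genes rose and 3 fell, with a median of 0.11. The fatty acid synthase gene fas1 (PHBOTO_002928) averaged 1097 ± 138 CPM on xylose and 708 ± 46.3 CPM on glucose, and acetyl-CoA carboxylase, acc1 (PHBOTO_004877), 1018 ± 82.6 CPM on xylose and 772 ± 50.5 CPM on glucose (SD, n = 3 each). Their log2 fold changes were 0.63 ± 0.14 and 0.40 ± 0.09 (SE; adjusted p = 0.00313 and 0.00304). The fallers were mae1, the desaturase gene ole1 (PHBOTO_001336) at -0.56 ± 0.14 and a locus named for sterigmatocystin synthesis (PHBOTO_001745) at -0.63 ± 0.15 (SE). The mae1 product is annotated as NAD-dependent, so its fall is not read as a fall in NADPH supply. ATP-citrate lyase, acl1 (PHBOTO_001285), did not pass the test (log2 0.16 ± 0.08 SE). In triacylglycerol synthesis 1 of 13 tested genes rose (0 without xylose B or any glucose library) and 1 fell, with a median of -0.03.

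The sugar difference was compared between exponential growth and nitrogen starvation through the interaction of sugar and phase, fitted on the 12 libraries. It was called for 2218 of 5805 genes (38.2%). The exponential sugar difference is part of the interaction. Shares of interaction calls among genes chosen by that difference are therefore partly set by the choice. Among the 577 genes that rose on xylose in exponential growth, 391 (67.8%) had a different sugar difference in starvation. In starvation 190 of them were again higher on xylose, which is 32.9% of the exponential risers and 14.3% of the 1333 genes higher on xylose in starvation, a set that makes up 23.0% of tested genes. A further 116 of the 577 were lower on xylose in starvation (20.1%, and 10.4% of the 1113 genes lower in starvation). Among the 626 that fell, 434 (69.3%) had a different sugar difference in starvation. Of these 626, 97 again fell (15.5%, and 8.72% of the 1113 genes lower in starvation, themselves 19.2% of tested genes), while 210 were higher on xylose in starvation (33.5%, and 15.8% of the 1333).

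Among the strongest risers none was called in the opposite direction. Of the 18 largest rises named by the rule 14 were also higher on xylose in starvation, none was lower and 4 were not called. The interaction, which contains the exponential difference they were chosen by, was called for 16 of the 18. The snf3 gene stood at 1501, 1615 and 1804 CPM in starved xylose cultures and 13.2, 13.4 and 13.5 CPM in starved glucose cultures. Its difference was 123-fold there, against 539-fold in exponential growth, and its interaction was called (log2 2.13, adjusted p = 3.53e-08). The endo-xylanase gene reached 1621, 1374 and 1618 CPM in starved xylose cultures, against 3.45, 6.89 and 5.67 CPM in starved glucose cultures, and the test of its sugar difference between phases missed the threshold (interaction log2 -0.63, adjusted p = 0.0543).

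The transaldolase and mannose-6-phosphate isomerase genes kept less of the difference. The transaldolase gene (PHBOTO_006510) averaged 100.2 ± 6.29 CPM in starved xylose cultures and 46.6 ± 13.8 CPM in starved glucose cultures (SD, n = 3 each), an interaction of 5.32 on the log2 scale (adjusted p = 1.29e-10). The isomerase gene (PHBOTO_006511) averaged 59.5 ± 11.5 CPM and 5.35 ± 3.55 CPM in the same groups (interaction log2 6.28, adjusted p = 1.74e-07). The dur3_2 gene, 523 ± 126 CPM on xylose in exponential growth, averaged 0.434 ± 0.325 CPM in starved xylose cultures and 0.373 ± 0.314 CPM in starved glucose cultures, and yil166c averaged 0.434 ± 0.179 CPM and 0.125 ± 0.167 CPM in the same groups. Both thus stood below 1 CPM in starvation on either sugar. The interaction was called for dur3_2 (log2 7.60, adjusted p = 1.67e-04) and missed the threshold for yil166c (log2 4.48, adjusted p = 0.0764).

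**Figure D5:**
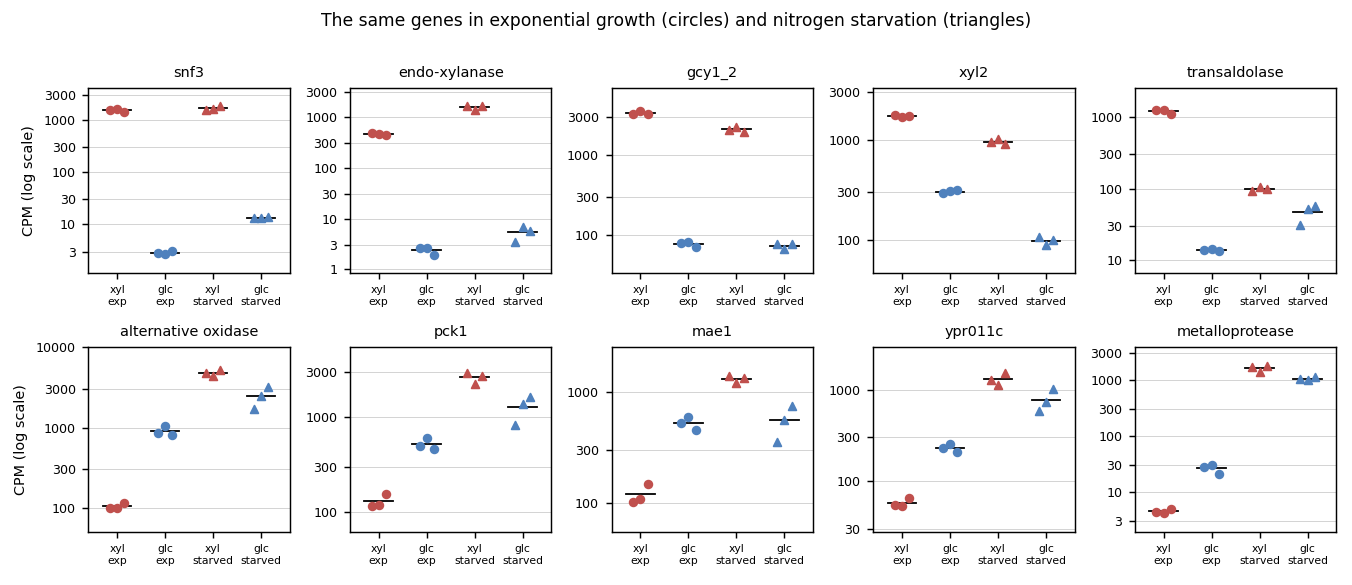
CPM (log scale, each panel with its own range) of 10 genes in xylose (red) and glucose (blue) libraries of exponential growth (circles) and nitrogen starvation (triangles); points are replicates A, B and C from left to right and bars are group means. The upper row keeps xylose above glucose in both phases, while the lower row, from the alternative oxidase to the metalloprotease, is lower on xylose in exponential growth and higher on xylose in starvation.

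Among the strongest fallers many turned round. Of the 18 largest falls named by the rule, 10 were higher on xylose in starvation, 2 lower and 6 not called. The interaction was called for all 18, but it contains the exponential difference they were chosen by. The alternative oxidase gene had 4793, 4347 and 5156 CPM in starved xylose cultures, against 1681, 2496 and 3243 CPM in starved glucose cultures. The pck1 gene had 2923, 2264 and 2712 CPM in starved xylose cultures, against 833, 1364 and 1650.5 CPM in starved glucose cultures. Both stood higher in starvation than in exponential growth on each sugar, and on xylose the level was the lowest of the 4 groups in exponential growth and the highest in starvation. In starved glucose cultures both climbed from replicate A to C, as did mae1 (357, 553 and 743 CPM) and ypr011c (581, 736 and 1013 CPM). The metalloprotease gene (1013, 971 and 1095 CPM) and mal31 did not. Genes that turned round thus shared differences between cultures and are not separate observations. The mal32 gene was again lower on xylose, at 86.9 ± 2.201 CPM in starved xylose cultures and 124 ± 9.20 CPM in starved glucose cultures (SD, n = 3 each; log2 -0.51, adjusted p = 1.07e-04).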

How the data were processed

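Poly-A RNA was sequenced as stranded libraries. Per the submitters' processing notes, the authors used bcl2fastq 2.20.0.422, CASAVA, Trim Galore 0.6.1, cutadapt 2.3, HISAT2 2.2.1 and DESeq2. Not given in the sources used here are the read counter, strand setting, genome build and annotation, so reads of overlapping genes may not be told apart. The deposited table gives raw counts per locus, which were used here, and the authors' normalized counts (signal), log2 fold changes, test statistics (score) and p-values, of which the log2 fold changes and p-values were used once, for a count of calls. Counts were fitted with edgeR 4.0.16 (R 4.3.3; TMM, filterByExpr, quasi-likelihood F test, 1 coefficient per group, 12 libraries, 8 residual degrees of freedom) and adjusted over 5805 genes. SEs were derived from the F statistic. Alternatives were DESeq2, other scalings, no filter, the 6 exponential libraries, a replicate block and leaving out each library. Replicate pairs differed beyond counting noise (chi-square per degree of freedom 11.5 to 22.5; Spearman rho 0.995 to 0.997), and p-values measure the spread of these cultures. Genes were named by a rule: 15 annotated and 3 unannotated largest rises and falls with non-overlapping replicates and at least 20 CPM, every tested member of lists of up to 12, 4 changed members and the highest member of longer lists, and the 6 highest called genes. The comparison and the 35 lists were chosen with earlier results of these data known, and 3 lists were added after values had been seen.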

Additional observations from a re-analysis of the deposited data

Results flagged for a closer look

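The sugar difference of 2218 genes differed between exponential growth and starvation (interaction, adjusted p below 0.05). Among the genes with the largest rises and falls, those called in both phases with opposite signs are given here with their interaction, the exponential minus the starved log2 fold change. The interaction was -6.44 for the maltose permease gene mal31 (PHBOTO_003640), which had 3.07 ± 0.261 CPM on xylose and 39.4 ± 4.66 CPM on glucose in exponential growth, and 3.23 ± 1.08 CPM on xylose and 0.474 ± 0.250 CPM on glucose in starvation. It was -4.06 for the alternative oxidase gene (PHBOTO_002482), -3.36 for the malic enzyme gene mae1 (PHBOTO_002234), -3.04 for pck1 (PHBOTO_005250) and -2.75 for the mitochondrial carrier gene ypr011c (PHBOTO_002278). A metalloprotease gene (PHBOTO_005859) had -3.18, and the polyamine transporter genes tpo3_4 (PHBOTO_006082) and tpo3_2 (PHBOTO_001585) had -2.72 and -2.65. The unannotated loci PHBOTO_000769 and PHBOTO_003533 had -5.39 and -3.06; the first averaged 5.05 ± 0.713 CPM on xylose and 31.3 ± 10.4 CPM on glucose in exponential growth, against 7301 ± 3892 CPM on xylose and 1085 ± 917 CPM on glucose in starvation (SD, n = 3 each).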

How the results depend on the processing

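The fit of the 6 exponential libraries alone gave 1282 genes higher and 1176 lower, against 577 and 626, and 576 and 624 of these were called again in the same direction. The replicate block on those 6 libraries gave 1222 and 1112, and on 12 libraries 570 and 619, with 8 heat shock and chaperone genes lower against 3. Same-letter cultures on xylose and glucose did not deviate together (r = -0.02, -0.17 and 0.03 for A, B and C), and pairs of other letters reached 0.177. Such values over many genes do not exclude shared deviations of single genes. In starvation PHBOTO_000769 climbed from A to C on xylose (3400, 7318 and 11184 CPM) and on glucose (392, 739 and 2125 CPM). The alternative oxidase gene did so on glucose only. Whether same-letter libraries of a sugar in exponential growth and starvation are related was not tested. The main fit treated the 12 libraries as independent. Leaving out a library gave 411 to 477 genes higher and 380 to 474 lower; the count of fallers was more than 1.5 times smaller without xylose B (411), xylose C (389) or glucose B (380). Counts at 2-fold or more stayed within 1.5 times under every alternative run, as did the interaction count (1820 to 2360). DESeq2 gave 618 and 767, and the authors' deposited table holds 632 and 782 genes below an adjusted p of 0.05. All 36 genes with the largest rises and falls passed in each alternative; of the 159 named genes that were called, 27 lost the call in at least 1 alternative and none reversed. Lists without misfiled members moved by 1 gene at most in each direction. Depth limits the genes under about 20 reads a group, such as emt1.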

Other observations

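Some genes of the cell surface and of stress defence differed between the sugars by moderate amounts, but most listed genes were not called in the fit of the 12 libraries. Over all tested genes 9.94% rose and 10.8% fell, and the counts below are read against these shares. In the fit of the 6 exponential libraries the shares were 22.4% and 20.5%. Of 43 tested cell wall genes 7 rose (4 without xylose C) and 4 fell, and their median log2 fold change was 0.03. In the fit of the 6 exponential libraries 16 of them rose and 6 fell. The chitin deacetylase gene cda2_3 (PHBOTO_000194), which turns chitin into chitosan, had 238, 224 and 306 CPM on xylose, against 755, 864 and 725 CPM on glucose (log2 -1.61 ± 0.16 SE, adjusted p = 2.50e-06). The chitin synthase gene chs3_5 (PHBOTO_005908) averaged 308 ± 23.7 CPM on xylose and 744 ± 70.5 CPM on glucose (log2 -1.27 ± 0.15 SE), while the glucanosyltransferase gene gas1 (PHBOTO_001855) rose to 100.2 ± 1.26 CPM on xylose, against 51.3 ± 2.96 CPM on glucose (SD, n = 3 each; log2 0.97 ± 0.17 SE). Of 27 tested heat shock and chaperone genes 3 fell and 1 rose (fallers 0 without glucose B, 5 with DESeq2 and 14 in the fit of the 6 exponential libraries), with a median of -0.21. The disaggregase gene hsp104 (PHBOTO_006490) had 22.7, 22.0 and 19.2 CPM on xylose, against 73.5, 97.3 and 54.4 CPM on glucose (log2 -1.82 ± 0.47 SE, adjusted p = 0.0114), and its adjusted p was 0.0512 without glucose replicate B, in a range of 4.61e-11 to 0.0512 over 13 alternatives. The small heat shock gene hsp12 (PHBOTO_000639) went the other way, with 111 ± 23.7 CPM on xylose and 38.6 ± 5.45 CPM on glucose (SD, n = 3 each; log2 1.53 ± 0.14 SE).

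Of 32 tested genes of oxidative stress defence 4 rose (2 without xylose C, glucose A or glucose B) and 1 fell, with a median of 0.00; the peroxiredoxin gene ahp1 (PHBOTO_003146) averaged 59.0 ± 4.80 CPM on xylose and 19.99 ± 1.29 CPM on glucose (SD, n = 3 each; log2 1.56 ± 0.09 SE). Of 25 tested autophagy and vacuolar protease genes 6 rose (3 without any 1 of the glucose libraries) and 1 fell, with a median of 0.10, and of 42 proteasome genes 1 rose (0 or 1 when a library was left out) and 4 fell (1 without xylose C or glucose B, 2 without xylose A, xylose B or glucose A, 8 with DESeq2), with a median of -0.16. The fit of the 6 exponential libraries gave 12 higher and 2 lower for autophagy and vacuolar proteases. It gave 3 and 13 for the proteasome, and 8 and 3 for oxidative stress defence. Thiamine synthesis genes were among the called genes that took the most reads. The thiazole synthase gene thi4 (PHBOTO_002209) had 3256, 3643 and 2963 CPM on xylose, against 1793, 1189 and 1865 CPM on glucose (log2 1.02 ± 0.15 SE, adjusted p = 1.28e-04), and the pyrimidine precursor gene thi13 (PHBOTO_000007) averaged 2637 ± 137 CPM on xylose and 1552 ± 231 CPM on glucose (SD, n = 3 each). The unannotated locus PHBOTO_005457 had 4213, 4234 and 4988 CPM on xylose, against 1135, 1256 and 1714 CPM on glucose, and PHBOTO_005906 had 3392, 3508 and 4095 CPM on xylose, against 8555, 8490.1 and 7209 CPM on glucose (log2 1.71 ± 0.14 and -1.14 ± 0.13 SE).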
